A study of Mus musculus with 11 samples.

Results

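Liver sinusoids are lined by a specialised endothelium with open pores and no continuous basement membrane, which clears waste molecules from blood through scavenger receptors. In chronic liver injury these cells can lose their pores and take on features of ordinary capillaries, a process called capillarization, in which CD34 and a basement membrane appear. The genes described here are 8 that mark the sinusoidal lining (Stab1, Stab2, Lyve1, Clec4g, Kdr, Pecam1, Eng and Oit3) and 2 that mark capillaries (Cd34 and Plvap). They were chosen by name as known markers, and all 10 were found among the 31280 genes of the deposited table. Pecam1, Eng and Kdr are shared by most endothelia and are not particular to sinusoids, and Plvap also forms the diaphragms of fenestrated capillaries elsewhere.

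The livers came from wild-type C57BL/6 mice fed a methionine- and choline-deficient (MCD) diet for 8 weeks, which injures the liver through fat build-up, inflammation and fibrosis. In the limonin group, 6 mice also received limonin, a bitter triterpenoid of citrus, by stomach tube at 100 mg/kg over 4 weeks, and in the MCD group 5 mice received water. Both groups therefore had the injury-inducing diet, and livers of mice on normal feed were not analysed here. Whole liver was sequenced, with 1 library for each labelled replicate, so fewer endothelial cells and less RNA per cell cannot be told apart. The labels do not describe how the replicates were housed or handled, and p-values measure the spread between these samples.

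Levels are in FPKM, fragments normalised to transcript length and library depth, which allows genes to be compared with each other within a library. The size of the smallest steps in the values implied 15520000 to 19630000 fragments per library. Endothelial RNA was present in every library: Pecam1, Cdh5, Kdr, Eng, Tie1 and Stab2 each reached at least 1 FPKM in all 11. The summed level of 8 hepatocyte markers ran from 32523 to 49790 FPKM in limonin livers and from 30473 to 38172 FPKM in MCD livers. In the fit described below, 3 of the 8 were called higher (Alb, Cps1 and Fga, 37.5%, against 7.24% of all tested genes) and 0 lower. All 5 tested bile duct markers and all 3 tested B and T cell markers were called lower, against 18.7% of all tested genes. The calls of Alb, Sox9 and Cd79a among these were lost in some fits without a single library. Some libraries stood apart in RNA of other tissues. The sum of 6 heart genes was 12.7 FPKM in limonin 5 and 9.50 FPKM in limonin 6, against at most 3.64 FPKM in the other 9 libraries. The sum of 6 spermatid genes was 0 in MCD 4 and 0.0937 FPKM in MCD 5, against 14.2 to 110 FPKM in the other 9 libraries. Results are therefore also given without these pairs of libraries. The sum of 4 salivary gland genes ran from 0 in limonin 5 to 383 FPKM in limonin 2, and from 21.2 to 207 FPKM in MCD livers. These 3 lists of other tissues were drawn up after their values were seen.

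Limonin livers had lower levels of both capillary genes, while the sinusoidal genes were mixed. Of the 8 sinusoidal genes, Stab1 and Eng fell, Kdr rose and 5 were not called. Of the capillary genes, Plvap fell, and Cd34 was lower in all 6 limonin livers than in all 5 MCD livers. Cd34 reached 1 FPKM in only 4 libraries and so did not pass the filter on low values, which asks for 1 FPKM in 5 libraries. The other 9 genes passed it. Among these 9, 3 were called lower and 1 higher by limma with Benjamini-Hochberg adjustment over 10489 genes (adjusted p below 0.05), against a background of 18.7% of all tested genes lower and 7.24% higher. The median log2 fold change was -0.12 over the 9 genes and -0.07 over all tested genes. None of the 9 separated the groups completely, whereas every limonin library lay below every MCD library in 8.33% of tested genes and above in 2.97%. With 9 genes, 3 calls are a small count to set against that background. Higher genes made up 27.9% of all calls in the deposited FPKM and 48.1% to 52.9% after each of 3 rescalings of the libraries, under which Stab1 and Plvap stayed lower and Kdr higher while Eng lost its call. Without a filter, Stab1, Plvap and Cd34 were lower and none of the 10 higher, beside 5.68% of genes lower and 1.32% higher. In the authors' deposited table, Stab1, Plvap and Cd34 were lower and Kdr higher at q below 0.05, beside 7.44% of genes lower and 8.57% higher. The authors' own mark of significance there was given to Stab1, Plvap and Cd34, and not to Kdr.

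**Figure D1:**
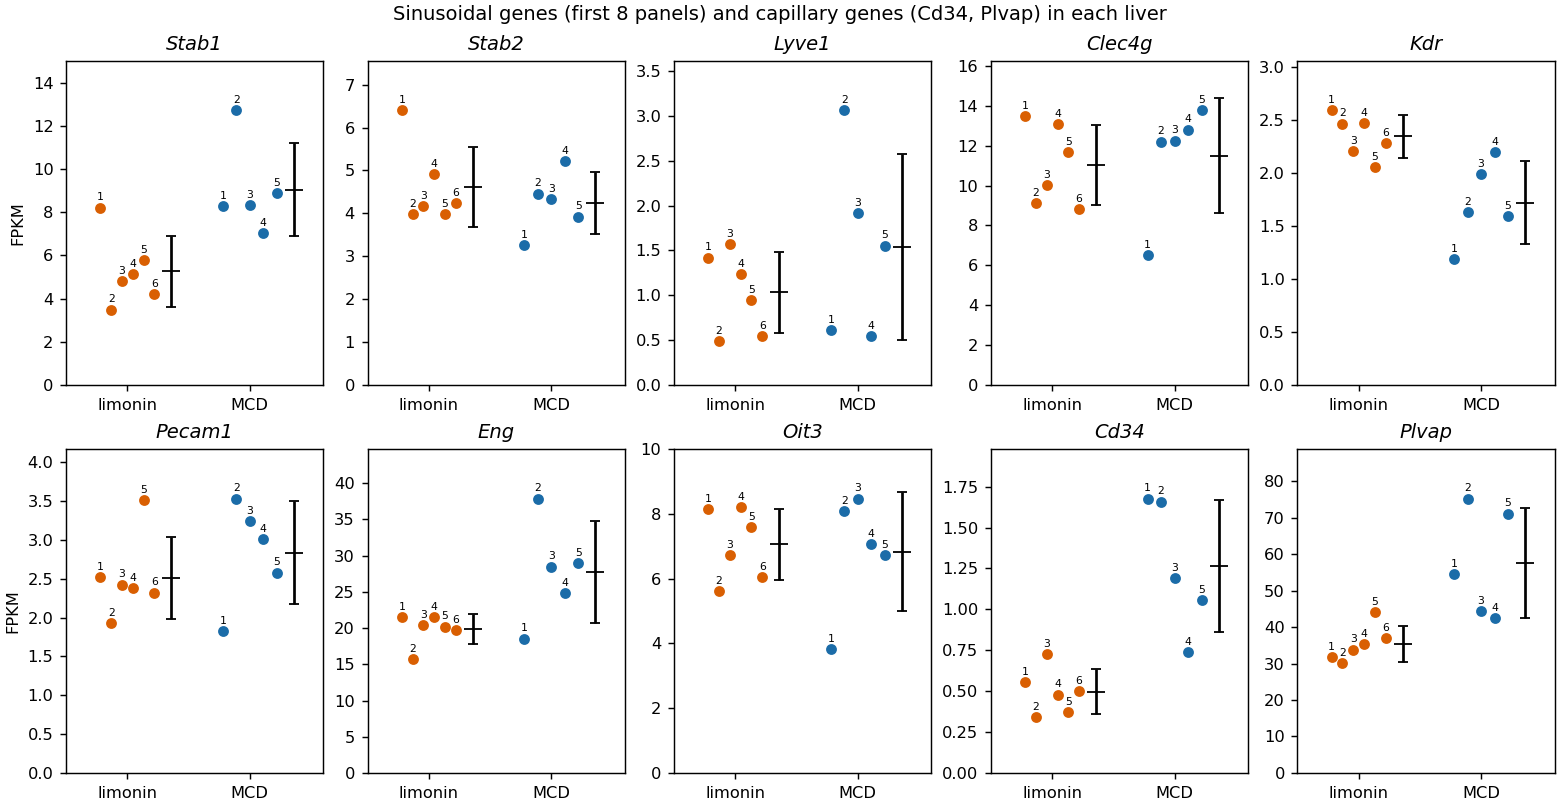
FPKM of the 10 endothelial genes in each liver, limonin (orange, 6 livers) beside MCD (blue, 5 livers), with replicate numbers over the points and the mean ± SD as black bars. Cd34 is the gene without overlap between groups, from 0.343 to 0.727 FPKM in limonin and from 0.740 to 1.68 FPKM in MCD, while the points of Stab2, Clec4g and Oit3 overlap widely.

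Plvap encodes a structural protein of the diaphragms that span endothelial pores and vesicles, and was the most abundant of the 10 genes. It lies on chromosome 8, 71497765 to 71511752 (minus strand, GRCm38). Limonin livers held 30.1 FPKM at the lowest, 34.6 at the median and 44.1 at the highest, and the MCD livers held 54.6, 75.3, 44.3, 42.5 and 71.1 FPKM in replicates 1 to 5. The groups overlapped only through limonin 5, at 44.1 FPKM, which lay above MCD 4 and close to MCD 3. Means were 35.4 ± 4.92 FPKM (SD, n = 6) with limonin and 57.6 ± 15.1 FPKM (SD, n = 5) in MCD, a log2 fold change of -0.66 ± 0.15 (SE, adjusted p = 0.00901). The fall of Plvap was called in all 27 settings tried, with fold changes from -0.76 to -0.54. Without limonin 5 and 6 it was -0.76.

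Cd34, a sialomucin on capillary endothelium and blood progenitors, lies on chromosome 1, 194938819 to 194961279 (plus strand). It was the least abundant of the 10 genes. Limonin livers held 0.343 FPKM at the lowest, 0.489 at the median and 0.727 at the highest. The MCD livers held 1.68, 1.66, 1.19, 0.740 and 1.06 FPKM in replicates 1 to 5. Over the coding transcripts these values correspond to roughly 16 to 36 fragments per limonin library and 35 to 80 per MCD library. All limonin values lay below all MCD values, although limonin 3 and MCD 4 nearly met. In a fit over 12766 genes with at least 0.5 FPKM in 5 libraries, an alternative added after the data were seen, the log2 fold change was -0.58 ± 0.12 (adjusted p = 0.00503), beside 19.1% of genes called lower there. Only 2 limonin livers reached 0.5 FPKM, against all 5 MCD livers, so Cd34 entered that fit through the MCD livers. Without any filter the adjusted p was 0.0234. Leaving out single libraries under the 0.5 FPKM filter kept it between -0.67 and -0.52 (largest adjusted p 0.0185), and it was -0.56 without limonin 5 and 6 and -0.74 without MCD 4 and 5. The authors' deposited table gives Cd34 a ratio of 0.392 (q = 4.00e-06), larger than the change on the log2(FPKM + 1) scale, which understates low genes.

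Cd34 is also made by portal fibroblasts and blood progenitors. Markers of stellate cells and fibroblasts fell beside it, 10 of 13 tested (76.9%, against 18.7% of all tested genes lower). The summed level of the list was 56.8 to 81.0 FPKM in limonin and 88.2 to 170 FPKM in MCD. Of these 10, Thy1 and Mfap4 reached 1 FPKM in 2 and 3 limonin livers and in all 5 MCD livers. Pi16, a marker of CD34-bearing fibroblasts, held 0.0243 to 0.0716 FPKM in limonin livers and 0.0763 to 0.130 FPKM in MCD livers, so it was very low and, like Cd34, lower in every limonin liver than in every MCD liver. It did not pass the filter, and without one its adjusted p was 0.0509. Of 6 platelet and progenitor markers, Pf4 and Ly6a were tested and both fell, against 18.7% of all tested genes lower. The sums of the 6 were 5.49 to 10.3 FPKM in limonin and 13.8 to 24.1 FPKM in MCD. Ly6a alone held 2.75 to 7.44 FPKM in limonin and 7.85 to 13.0 FPKM in MCD, and is also counted among the further capillary genes below. Gp9 went the other way, with means of 0.156 FPKM in limonin and 0.0814 FPKM in MCD, and was at 0 in MCD 5. Kit ran from 0.378 to 0.913 FPKM in limonin and from 0.648 to 1.01 FPKM in MCD. The part of these cells in the Cd34 values was not tested.

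The stabilins are large scavenger receptors that take up hyaluronan, collagen fragments and modified lipoproteins. Stab1 was called and its paralog Stab2 was not, and the difference between their changes was not tested. Stab1 (chromosome 14, 31139013 to 31168641, minus strand) ran from 3.49 FPKM at the lowest through 4.97 at the median to 8.22 at the highest in limonin livers. In MCD livers it stood at 8.29, 12.7, 8.34, 7.04 and 8.88 FPKM in replicates 1 to 5. The groups overlapped through limonin 1, and the other 5 limonin livers lay below every MCD liver. Stab1 averaged 5.27 ± 1.64 FPKM with limonin and 9.05 ± 2.16 FPKM in MCD, and fell by 0.69 ± 0.17 on the log2 scale (adjusted p = 0.0123). The call held without each single library (largest adjusted p 0.0387) and without limonin 5 and 6 (0.0333). Stab2 (chromosome 10, 86841198 to 87008025, minus strand) held 3.98 FPKM at the lowest, 4.20 at the median and 6.4 at the highest with limonin, against 3.26, 4.46, 4.34, 5.21 and 3.92 FPKM in MCD replicates 1 to 5. Its groups overlapped almost fully, with a log2 fold change of 0.10 and a 95% interval from -0.17 to 0.37 (adjusted p = 0.604). The ratio of Stab1 to Stab2 was 0.875 to 1.45 in limonin livers and 1.35 to 2.85 in MCD livers, with limonin 5 above MCD 4.

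Stab1 is also known in macrophages, whereas Stab2 is largely kept to sinusoidal endothelium. Beside Stab1, 8 of 9 tested markers of recruited macrophages fell (88.9%, against 18.7% of all tested genes lower). The summed level of the list was 58.5 to 148 FPKM in limonin livers and 118 to 519 FPKM in MCD livers. Much of that sum was Spp1, which is also on the list of bile duct markers. Spp1 held 15.7 to 63.2 FPKM in limonin livers and 52.3 to 353 FPKM in MCD livers, highest in MCD 1. Ly6c2, 1 of the 8, reached 1 FPKM in 1 limonin liver and 4 MCD livers. Of 10 tested markers of Kupffer cells, the resident macrophages of the sinusoid, 4 fell (Csf1r, C1qa, C1qb and C1qc), or 40%. The other 6 were not called: Clec4f (-0.20), Vsig4 (0.01), Cd5l (-0.29), Folr2 (-0.33), Marco (-0.73) and Adgre1 (-0.38). The sum of the Kupffer cell list ran from 125 to 196 FPKM with limonin and from 165 to 504 FPKM in MCD. No marker of these 2 lists was at 0 in any library. Their part in the Stab1 difference was not tested.

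Lyve1, a hyaluronan receptor of sinusoids and lymphatic vessels, lay on chromosome 7, 110850607 to 110863239 (minus strand), and was low and variable. It ran from 0.485 through a median of 1.09 to 1.57 FPKM in limonin livers, against 0.611, 3.06, 1.92, 0.542 and 1.55 FPKM in MCD replicates 1 to 5. MCD 2 held the highest value and MCD 4 the lowest, so the MCD spread covered almost the whole limonin range. The log2 fold change was -0.25 with a 95% interval from -0.78 to 0.28 (adjusted p = 0.471). Markers of lymphatic endothelium were not called, 0 of 3 tested, and Pdpn and Mmrn1 were below the filter. Pdpn averaged 0.234 FPKM with limonin and 0.604 FPKM in MCD, and without a filter it was called lower (-0.38, adjusted p = 0.0379).

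Clec4g, a C-type lectin also called LSECtin, and Oit3, a secreted protein restricted largely to these cells in liver, showed no difference beyond the spread. Clec4g (chromosome 8, 3707064 to 3720651, minus strand) held 8.82, 10.9 and 13.5 FPKM at the lowest, median and highest of limonin livers, and 6.49, 12.2, 12.3, 12.8 and 13.8 FPKM in MCD replicates 1 to 5. Its log2 fold change was -0.03, from -0.40 to 0.33 (95% interval), and the sign turned after each of 3 rescalings of the libraries. Oit3 (chromosome 10, 59422958 to 59441778, minus strand) held 5.62, 7.16 and 8.22 FPKM at the lowest, median and highest with limonin, and 3.84, 8.09, 8.48, 7.07 and 6.73 FPKM in MCD. Its log2 fold change was 0.07, from -0.28 to 0.41. In both genes MCD 1 was far below the other MCD livers.

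Kdr encodes VEGF receptor 2, the main signalling receptor for vascular growth factor A, and was the 1 gene of the 10 that rose. It lies on chromosome 5, 75932827 to 75978458 (minus strand). Limonin livers held 2.06, 2.38 and 2.59 FPKM at the lowest, median and highest, and the MCD livers 1.19, 1.63, 1.99, 2.20 and 1.59 FPKM in replicates 1 to 5. Only MCD 4 reached into the limonin range, and 5 of 6 limonin livers lay above it. Means were 2.35 ± 0.199 FPKM (n = 6) and 1.72 ± 0.391 FPKM (n = 5), with a log2 fold change of 0.31 ± 0.11 and an adjusted p of 0.0461. The direction was the same in all 26 settings tried, but the call was lost in 8 of the 11 fits without a single library, among them that without MCD 1 (0.23, adjusted p = 0.122), and without MCD 4 and 5 (0.37, adjusted p = 0.0574).

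Eng encodes endoglin, an endothelial co-receptor for bone morphogenetic proteins (BMPs). It lies on chromosome 2, 32646595 to 32682669 (plus strand). Limonin livers held 15.8, 20.3 and 21.5 FPKM at the lowest, median and highest, and the MCD livers 18.5, 37.9, 28.5, 24.9 and 29.0 FPKM in replicates 1 to 5. All limonin livers lay below MCD 2 to 5, and MCD 1 fell within the limonin range. Eng averaged 19.9 ± 2.13 FPKM with limonin and 27.8 ± 7.03 FPKM in MCD, and fell by 0.43 ± 0.15 on the log2 scale (adjusted p = 0.0424). The call was lost in 8 of the 11 fits without a single library (largest adjusted p 0.122), after each of 3 rescalings (largest 0.125), without limonin 5 and 6 (0.0832) and without MCD 4 and 5 (0.107). Without MCD 1 the fall was 0.56 (adjusted p = 0.0123). In the authors' deposited table Eng had q = 0.174. Pecam1, the adhesion molecule CD31 of all endothelia, platelets and leukocytes (chromosome 11, 106654217 to 106750628, minus strand), held 1.93, 2.40 and 3.51 FPKM at the lowest, median and highest with limonin. In MCD replicates 1 to 5 it held 1.82, 3.53, 3.25, 3.01 and 2.58 FPKM. Its highest limonin value was in limonin 5, and its log2 fold change was -0.12, from -0.41 to 0.17 (adjusted p = 0.537).

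**Figure D2:**
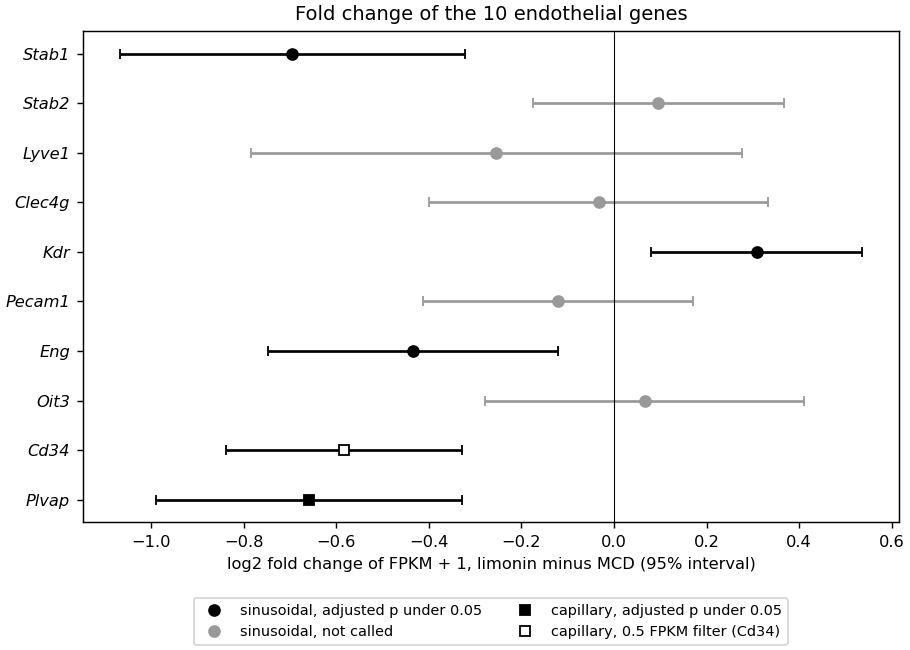
Log2 fold change of each gene, limonin minus MCD, on the log2(FPKM + 1) scale with 95% intervals from limma; black marks were called and grey marks were not, squares are capillary genes, and the open square is Cd34 under the 0.5 FPKM filter. Both capillary genes lie at -0.66 and -0.58, whereas the sinusoidal genes spread from -0.69 (Stab1) to 0.31 (Kdr).

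The overlap of genes on opposite strands touches some of these values. Stab1 overlaps Nt5dc2, Plvap overlaps Gtpbp3, Eng overlaps Fpgs and Cd34 overlaps the antisense gene Gm16897 in GENCODE M21. The sources used here do not give whether quantification took strand into account, so fragments from the shared stretches cannot be told apart.

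Promoter windows from RefSeq (GRCm38.p6, 250 bases before to 50 after the start) were found for 6 of the 10 genes. Of these, the windows of the 4 genes that differed are shown. The genes with lower levels (Cd34, Stab1, Eng) can be read beside the one with higher levels (Kdr). Plvap, which was also lower, had no window. Capitals mark GGAA or its reverse complement TTCC, the core letters of sites for ETS factors, the family that includes the endothelial factors ERG and FLI1. Cd34 is at chr1:194938571-194938870 (plus strand), Stab1 at chr14:31168592-31168891 (minus strand), Eng at chr2:32646345-32646644 (plus strand) and Kdr at chr5:75978406-75978705 (minus strand).
Cd34: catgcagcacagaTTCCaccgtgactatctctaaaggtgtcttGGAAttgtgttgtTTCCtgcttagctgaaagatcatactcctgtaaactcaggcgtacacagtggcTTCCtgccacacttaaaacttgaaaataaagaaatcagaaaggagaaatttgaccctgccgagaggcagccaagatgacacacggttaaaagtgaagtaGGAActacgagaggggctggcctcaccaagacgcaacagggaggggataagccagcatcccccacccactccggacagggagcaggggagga
Stab1: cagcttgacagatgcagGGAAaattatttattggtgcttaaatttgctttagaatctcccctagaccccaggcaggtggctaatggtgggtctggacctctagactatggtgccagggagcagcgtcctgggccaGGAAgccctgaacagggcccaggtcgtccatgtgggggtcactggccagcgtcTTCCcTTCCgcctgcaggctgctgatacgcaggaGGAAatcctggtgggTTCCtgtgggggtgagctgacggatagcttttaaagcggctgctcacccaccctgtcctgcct
Eng: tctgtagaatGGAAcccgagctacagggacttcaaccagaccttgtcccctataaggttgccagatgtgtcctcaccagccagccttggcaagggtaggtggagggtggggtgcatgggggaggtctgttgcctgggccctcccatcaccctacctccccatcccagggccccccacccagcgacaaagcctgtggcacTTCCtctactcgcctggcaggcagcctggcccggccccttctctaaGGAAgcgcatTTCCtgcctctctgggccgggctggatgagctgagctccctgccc
Kdr: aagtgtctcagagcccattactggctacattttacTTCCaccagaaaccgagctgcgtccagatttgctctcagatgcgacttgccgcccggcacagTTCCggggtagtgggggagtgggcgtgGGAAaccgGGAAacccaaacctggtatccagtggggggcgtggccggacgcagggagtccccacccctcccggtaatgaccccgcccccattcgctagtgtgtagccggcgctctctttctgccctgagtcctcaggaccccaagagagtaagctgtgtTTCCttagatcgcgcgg
The windows of Cd34, Stab1, Eng and Kdr held 5, 6, 4 and 5 matches of GGAA or TTCC, counting matches that touch another, beside a median of 3 over 32851 promoter windows, of which 96.0% held at least 1. The windows of Stab2 and Clec4g, which were not called, held 6 and 5 matches. The longer CCGGAA or TTCCGG occurred once, in Kdr, and in 14.9% of all windows. AGATAA or TTATCT, a form of the GATA factor letters, was present in 11.2% of all windows and in none of the 6. Other forms of the GATA factor letters were not counted. The palindrome GGCGCC (letters of BMP-responsive SMAD sites, 11.9% of all windows) also occurred in none of the 6 windows. A match is a description of letters and not of binding.

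Within either group the order of levels was similar. In limonin livers the means ran from Plvap (35.4 FPKM) and Eng (19.9) through Clec4g (11.03), Oit3 (7.06), Stab1 (5.27), Stab2 (4.61), Pecam1 (2.51) and Kdr (2.35) to Lyve1 (1.03) and Cd34 (0.496). In MCD livers the order differed only in that Stab1 (9.05) stood above Oit3 (6.84). In limonin livers the neighbours whose ranges overlapped were Oit3 with Stab1, Stab1 with Stab2, Pecam1 with Kdr, and Lyve1 with Cd34. In MCD livers every neighbouring pair from Clec4g downwards overlapped, and only Plvap and Eng stood clear.

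The contrast between sinusoidal and capillary genes was computed in each liver as the mean log2(FPKM + 1) of the 8 sinusoidal genes minus that of Cd34 and Plvap, and is given with no test because the genes were chosen with results of these data known. It was -0.01, -0.38, -0.39, -0.20, -0.35 and -0.50 in limonin replicates 1 to 6, and -1.35, -0.83, -0.48, -0.44 and -0.87 in MCD replicates 1 to 5. Sinusoidal genes thus stood higher relative to capillary genes in limonin livers, except that limonin 6 lay below MCD 3 and MCD 4. The means were -0.30 ± 0.17 and -0.79 ± 0.37 (SD), a difference of 0.49, made up of a sinusoidal difference of -0.13 and a capillary difference of -0.62 (limonin minus MCD). The sinusoidal difference depended on single livers, at -0.24 without MCD 1, -0.06 without MCD 2 and -0.08 without limonin 2, while the capillary one stayed between -0.72 and -0.54 without each liver. The sinusoidal mean was 2.57 ± 0.18 with limonin and 2.70 ± 0.28 in MCD, and the capillary mean was 2.88 ± 0.10 with limonin and 3.50 ± 0.28 in MCD. The ratio of Stab2 to Plvap, free of a pseudocount, was 0.0903 to 0.201 in limonin livers and 0.0552 to 0.123 in MCD livers. Limonin 5 and limonin 6 lay below MCD 4 in that ratio, and limonin 5 below MCD 3 as well. The ratio of Stab2 to Cd34 was 5.72 to 11.6 in limonin livers and 1.94 to 7.04 in MCD livers, with limonin 3 below MCD 4.

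**Figure D3:**
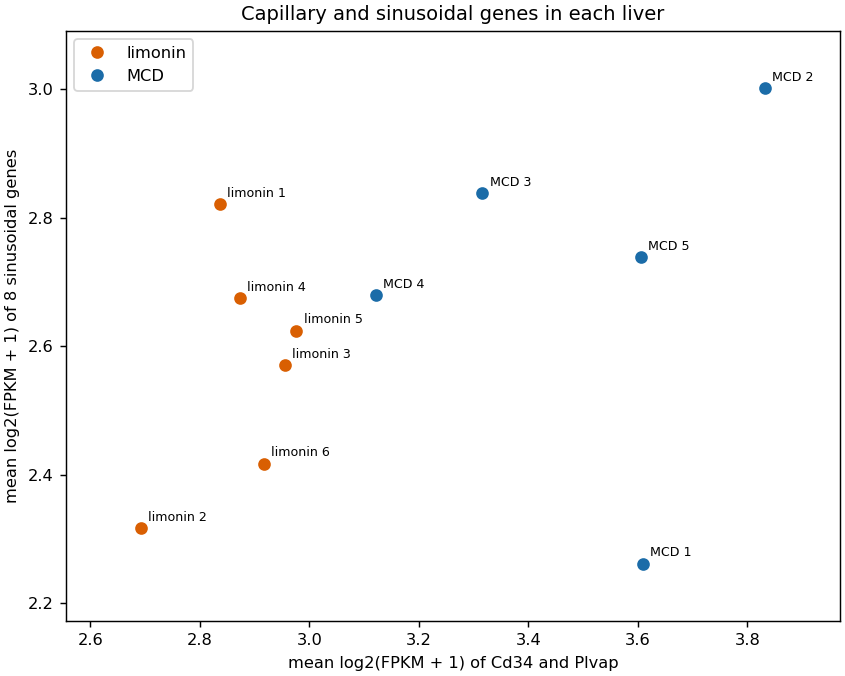
Each point is 1 liver, with the mean log2(FPKM + 1) of Cd34 and Plvap across and that of the 8 sinusoidal genes up, limonin in orange and MCD in blue. The 6 limonin livers lie left of all 5 MCD livers, from 2.69 to 2.98 against 3.12 to 3.83, while the groups share the vertical range; MCD 1 is the lowest of all in sinusoidal genes.

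Single livers held the extremes of several genes. MCD 1 held the lowest MCD value of 6 of the 10 genes, but the highest MCD value of Cd34. MCD 2 held the highest MCD value of 5, and limonin 2 the lowest limonin value of 7. Limonin 1 held the highest limonin value of 5. Kdr and Plvap lay on opposite sides, since Plvap was highest in MCD 2 and MCD 5, where Kdr was below its mean.

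**Figure D4:**
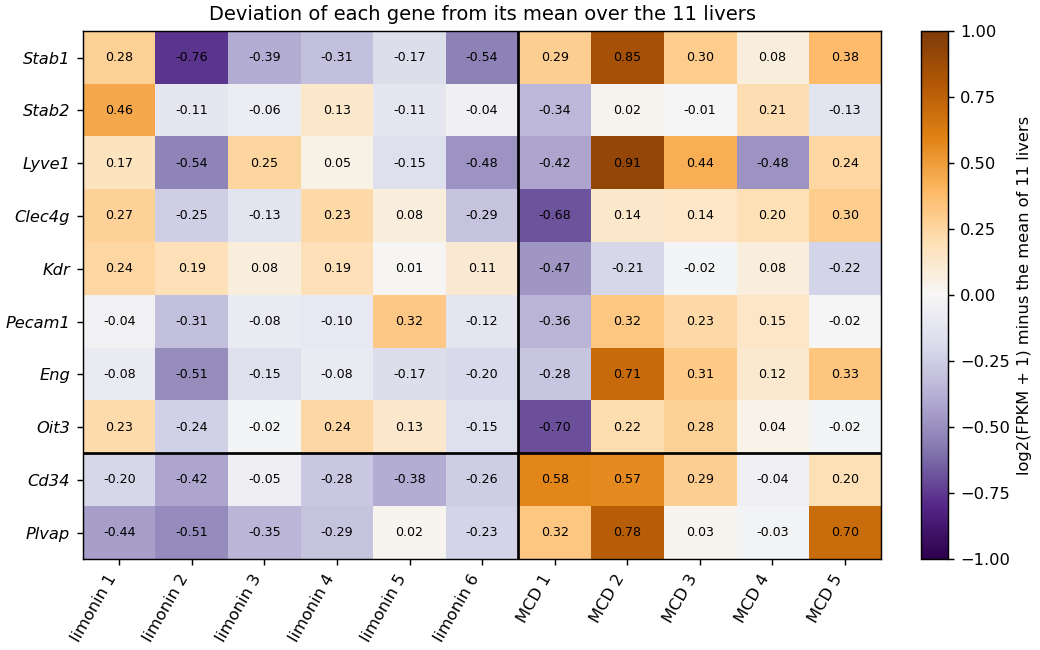
Deviation of log2(FPKM + 1) from the gene's mean over the 11 livers, limonin livers left of the line and MCD livers right, sinusoidal genes above the line and capillary genes below. MCD 1 is low in Clec4g (-0.68) and Oit3 (-0.70) but high in Cd34 (0.58), and MCD 2 is high in Lyve1 (0.91), Stab1 (0.85) and Plvap (0.78).

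Beyond the 10 genes, 123 further genes of endothelial identity and signalling were listed, of which 80 passed the filter. Limonin livers had lower levels of 28 of these and higher levels of none, 35% against the background of 18.7% of tested genes lower. The number lower was 22 with median-ratio scaling, 22 under quantile normalization and 19 at equal summed FPKM, with 1 or 2 higher. In the fit reported, the median log2 fold change was -0.25, against -0.07 over all genes. The share lower was 7.14% in further sinusoidal and 22.2% in pan-endothelial genes. It was 50%, 77.8% and 83.3% in the endoglin, basement membrane and nitric oxide lists, many of whose genes are also expressed in other liver cells. Changes of the listed genes are given on the log2(FPKM + 1) scale with their SE. The filter could be met by the 5 MCD livers alone, so low genes could enter by being high in MCD, as Acvrl1 and Cav1 did with 1 limonin liver each at 1 FPKM. The lists overlap, and without MCD 2 the number lower was 16.

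Endoglin acts with the receptor ALK1 (Acvrl1) and binds BMP9 (Gdf2) and BMP10, ligands that keep vessels quiescent, and the signal induces ID proteins and the inhibitory SMADs. Of 14 tested genes of this pathway, 7 fell, 0 rose and 7 were not called (50%, against 18.7% of all tested genes lower), and 3 fell without MCD 1, MCD 2 or limonin 2. Among the ligands, Gdf2, which in liver comes mainly from stellate cells, ran from 6.10 to 8.41 FPKM in limonin livers and from 9.87 to 17.0 FPKM in MCD livers. The groups did not overlap, and the log2 fold change was -0.74 ± 0.13 (adjusted p = 0.00234). The other ligands were not called, with Bmp10 at 0.03, Bmp2 at 0.06 and Bmp6, which endothelial cells release to control iron, at 0.08. The receptor gene Acvrl1 averaged 0.806 ± 0.168 FPKM with limonin and 1.54 ± 0.361 FPKM in MCD, without overlap, and fell by 0.48 ± 0.11 (adjusted p = 0.00822). The auxiliary receptors Tgfbr2 (-0.10) and Tgfbr3 (0.07) and the transducers Smad1 (-0.05) and Smad5 (-0.12) were not called, and Bmpr2 was below the filter.

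Targets of the pathway were lower as well. Id3, an inhibitor of helix-loop-helix factors, ran from 27.8 to 54.1 FPKM in limonin livers and from 60.8 to 120 FPKM in MCD livers, without overlap, a log2 fold change of -0.998 ± 0.19 (adjusted p = 0.00364). Id1 fell by 0.83 ± 0.24 (adjusted p = 0.0240), with limonin 6 (43.4 FPKM) above MCD 5 (36.7 FPKM). The inhibitory Smad7 fell by 0.44 ± 0.13 and Smad6 by 0.39 ± 0.12. Hamp, the hepatocyte hormone hepcidin and a target of BMP signalling, averaged 1818 ± 946 FPKM with limonin and 3400 ± 950 FPKM in MCD, a log2 fold change of -1.02 ± 0.33. Fragments of Hamp may be shared with its near copy Hamp2. These genes are expressed in several liver cells, so their values are not those of endothelium alone. The calls of Gdf2, Acvrl1 and Id3 held without each single library (largest adjusted p 0.00987, 0.0282 and 0.0119). Those of Id1, Smad6, Smad7 and Hamp were each lost without MCD 2, as well as without MCD 1 and limonin 2 (largest adjusted p 0.0699, 0.107, 0.0763 and 0.102). The number lower was then 3 of 14 without MCD 1, MCD 2 or limonin 2, 4 without limonin 4, and 4 after each of the 3 rescalings.

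**Figure D5:**
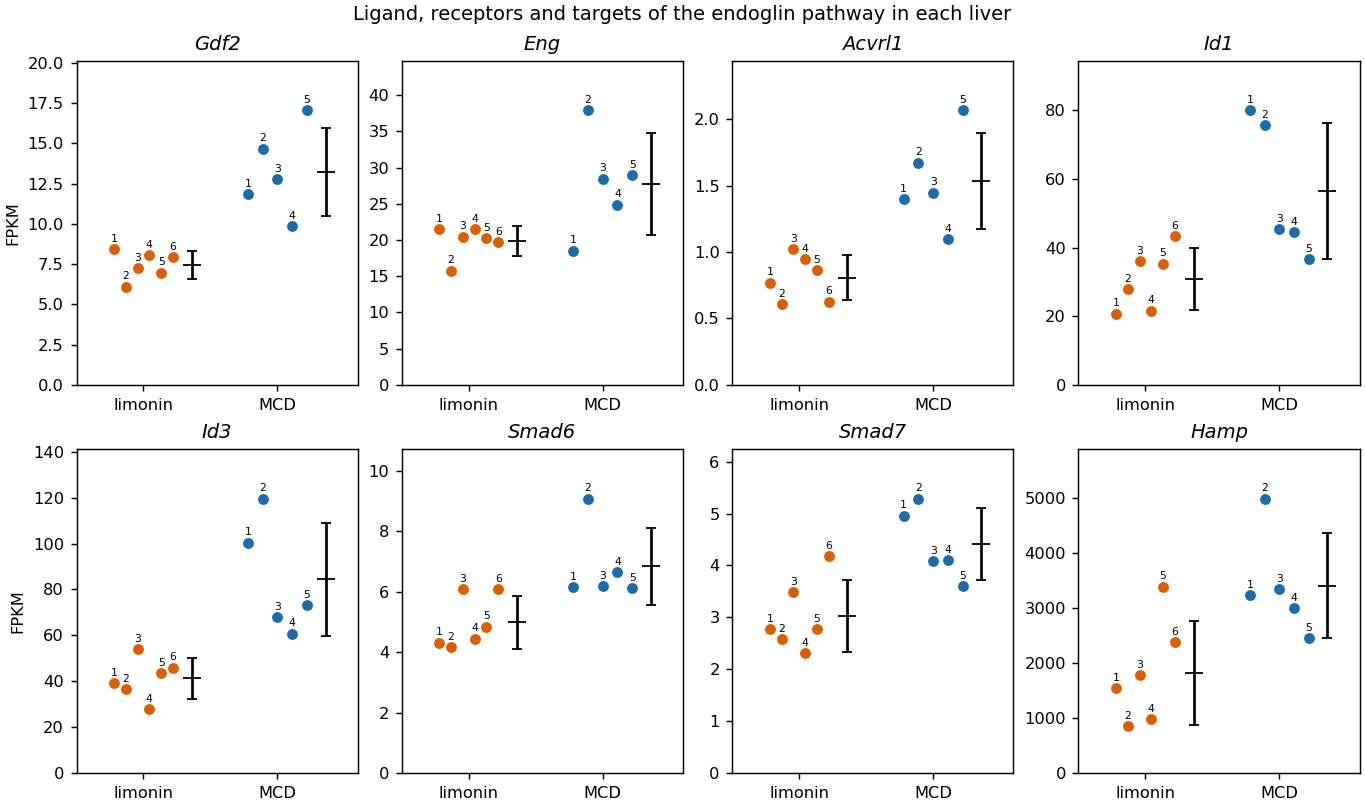
FPKM in each liver of the ligand gene Gdf2, the receptor genes Eng and Acvrl1 and 5 target genes, limonin (orange) beside MCD (blue), with the mean ± SD as black bars. Panels show Eng and the 7 genes of the endoglin list that were called lower. The 7 tested genes of that list that were not called, among them Bmp10, are not shown. Gdf2, Acvrl1, Id3 and, by a small margin, Smad6 separate the 6 limonin livers from the 5 MCD livers, while Eng, Id1, Smad7 and Hamp overlap.

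Genes of caveolae, nitric oxide and shear response fell in 5 of 6 tested cases (83.3%, against 18.7% of all tested genes). Cav1 and Gucy1a1 reached 1 FPKM in 1 and 2 limonin livers and in all 5 MCD livers, so they entered the test through MCD. Gucy1a1, a subunit of the nitric oxide receptor, fell by 0.32 ± 0.10, a call lost in 8 of the 11 fits without a single library (largest adjusted p 0.108). Caveolae are membrane pits abundant in continuous endothelium and also in fibroblasts. Cavin1, a caveolar coat protein, averaged 4.03 ± 0.566 FPKM with limonin and 8.33 ± 1.67 FPKM in MCD, a log2 fold change of -0.88 ± 0.12 without overlap (adjusted p = 0.00120). Cav1 fell by 0.51 ± 0.11. Klf2, a factor induced by blood flow, held 3.47 to 6.25 FPKM in limonin livers and 6.92 to 10.9 FPKM in MCD livers, and fell by 0.58 ± 0.13. The endothelin receptor gene Ednrb fell by 0.52 ± 0.15, and that call was lost without MCD 2 (adjusted p = 0.0667) and without limonin 5 and 6 (0.0508). Nos3, the endothelial nitric oxide synthase, was at -0.34 and not called. The number lower was 3 of 6 without MCD 2, without limonin 5 and 6 and at equal summed FPKM.

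Of 9 tested basement membrane genes, whose products line capillaries but are sparse along healthy sinusoids, 7 fell and 0 rose (77.8%, against 18.7% of all tested genes lower). The most abundant, Col18a1, which encodes the collagen that yields endostatin, averaged 88.9 ± 13.2 FPKM with limonin and 71.8 ± 7.01 FPKM in MCD (0.30, adjusted p = 0.0636). With median-ratio scaling, at equal summed FPKM, without limonin 4 and by the authors' deposited q, 1 gene of the list was higher. The laminin chain genes Lamb2 and Lama5 fell by 0.87 ± 0.14 and 0.83 ± 0.17, and Hspg2, which encodes perlecan, by 0.73 ± 0.13. Sparc, a collagen-binding matrix protein, averaged 15.3 ± 2.88 FPKM with limonin and 48.8 ± 19.5 FPKM in MCD, a log2 fold change of -1.52 ± 0.26. The laminin chain gene Lamc1 (-0.39) lost its call in 8 of the 11 fits without a single library. These genes are also made by stellate cells and fibroblasts, whose markers moved with them as given above.

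Further sinusoidal genes were mostly not called. Of 14 tested, 1 fell (7.14%, against 18.7% of all genes) and the median was -0.08. The 1 was Gpr182, a chemokine scavenging receptor, at -0.37 ± 0.13 (adjusted p = 0.0468), a call lost in 8 of the 11 fits without a single library (largest adjusted p 0.136). Gata4, a factor that specifies sinusoidal endothelium, stood at -0.29 (adjusted p = 0.0934), Ushbp1 at -0.37 and Flt4, VEGF receptor 3, at -0.20, none called. Of 7 tested further capillary genes, 2 fell (28.6%, against 18.7% of all tested genes lower). Ly6a fell by 0.90 ± 0.20 and Cd9 by 1.17 ± 0.32, while the fatty acid carrier gene Fabp4 (-0.38) and Ly6c1 (-0.25) were not called. Ly6a and Ly6c1 belong to a family of similar genes whose fragments can be shared, and Cd9 is also a marker of recruited macrophages. Ly6a is also counted among the platelet and progenitor markers above. Of Cd9 and Ly6a, only Ly6a stayed called without MCD 1, MCD 2, MCD 5 or limonin 2. Vwf and Emcn, classical vessel genes, were at most 1.06 FPKM in any liver and were not tested.

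Pan-endothelial genes were mixed. Of 18 tested, 4 fell and 14 were not called (22.2% lower, against 18.7% of all genes). Ecscr, an endothelial adhesion and survival protein, averaged 1.61 ± 0.409 FPKM with limonin and 3.98 ± 1.10 FPKM in MCD, a log2 fold change of -0.92 ± 0.16. Rasip1, which supports vessel lumens, fell by 0.68 ± 0.12 and the transcription cofactor gene Lmo2 by 0.50 ± 0.13. Egfl7, a secreted vessel protein, fell by 0.55 ± 0.17, a call lost without MCD 2, MCD 3, MCD 4 or limonin 6 (largest adjusted p 0.0875). Cdh5, the junction protein VE-cadherin, averaged 3.14 ± 0.292 FPKM with limonin and 3.56 ± 0.931 FPKM in MCD and was not called (-0.11).

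No tested vascular growth factor gene other than Kdr, and no tested gene of the angiopoietin and Tie group, was called. Of 5 tested VEGF ligands and receptors other than Kdr, 0 were called: Vegfa averaged 20.3 ± 6.33 FPKM with limonin and 20.0 ± 4.41 FPKM in MCD, Vegfb stood at -0.37, Vegfc at -0.20, Flt4 at -0.20 and the co-receptor Nrp1 at 0.25 (adjusted p = 0.0863). Nrp1 held 2.90 to 4.68 FPKM in limonin livers and 2.57 to 2.88 FPKM in MCD livers, so every limonin liver lay above every MCD liver. With median-ratio scaling, under quantile normalization, without limonin 5 and by the authors' deposited q, 1 gene of the list was higher. Flt1, the decoy receptor, was below the filter, with means of 0.391 FPKM in limonin and 0.419 FPKM in MCD. Of 4 tested genes of the angiopoietin and Tie group, 0 were called, with the receptor genes Tek at -0.09 and Tie1 at -0.15, the phosphatase gene Ptprb at 0.11 and Angptl4 at -0.04. The angiopoietin genes themselves were below the filter and were not tested. Angpt1 averaged 0.103 FPKM with limonin and 0.239 FPKM in MCD, and Angpt2 0.308 and 0.321 FPKM. By the authors' deposited q, 1 gene of this group was lower. Of 5 tested angiocrine genes, 1 fell (20%, against 18.7% of all tested genes lower). The Notch target Hes1 fell by 0.69 ± 0.20, a call lost without MCD 2 (adjusted p = 0.0557) and without limonin 5 and 6 (0.0733). The receptor gene Notch1 (-0.19), its ligand gene Dll4 (-0.19) and Rspo3 (-0.03), a Wnt enhancer from central vein endothelium, were not called.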

How the data were processed

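Per the labels' protocols, poly(A) RNA was made into strand-marked libraries. The tools named in the submitters' processing notes are cutadapt (1.9), HISAT2 (2.0.4) and StringTie (1.3.4d). The notes name the human build GRCh38, although the gene identifiers are of mouse. Values in the deposited table are FPKM for each gene in each liver. Per the file headers it also has the authors' ratio (limonin over MCD) and that ratio as log2, with the authors' p-value and q-value, from a test that the sources used here do not name. Counts were not used here. Depth was read from the steps of low FPKM values in genes with 1 transcript.

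The scale was log2(FPKM + 1). Genes reaching 1 FPKM in 5 or more libraries entered limma 3.58.1 in R 4.3.3 (trend, robust, two-sided) with Benjamini-Hochberg adjustment. A fold change on this scale understates low genes. The fit was tested on simulated data. Alternatives were other filters, pseudocounts of 0.1 and 0.01, 3 rescalings, no trend, library weights, the replicate number as a block and libraries left out. A further one was the authors' deposited q below 0.05, without regard to their own mark of significance. Coordinates are from GENCODE M21 (GRCm38). The genes, lists and tests were chosen with earlier results of these data known. Named were the 10 genes, the up to 4 lowest p-values in each list and all tested VEGF, angiopoietin and endoglin genes; Nos3, Cdh5, Col18a1, Lamc1, Gucy1a1, Pdpn, Vwf, Emcn, Pi16, Pf4 and Kit were named after their values were seen. Some genes that this rule names are not reported here. No other per-sample columns were present.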

Additional observations from a re-analysis of the deposited data

Results flagged for a closer look

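Among 20 groups examined (10 genes in 2 groups), 2 held a liver far from the others of its group, and chance gives about 1 in 20. Clec4g was 6.49 FPKM in MCD 1, against 12.2 FPKM in the next lowest MCD liver. Eng was 15.8 FPKM in limonin 2, against 19.8 FPKM in the next lowest limonin liver.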

How the results depend on the processing

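The number of genes changed over the whole table was 2716, and it was 1424 with a filter at 5 FPKM, 1257 with the replicate number as a block and 5010 by the authors' deposited q, and ran from 1408 (without MCD 2) to 3062 when single libraries were left out. Higher calls made up 27.9% of these without rescaling, 48.1% with median-ratio scaling, 52.9% under quantile normalization and 49.6% at equal summed FPKM. Of the 10 genes, 3 were lower in the fit reported, 1 with the replicate block (Plvap), and 2 to 3 without single libraries. The 1 higher gene, Kdr, was called 0 times with no filter, at 5 FPKM, with library weights, with the block and without MCD 4 and 5, and 0 to 1 times without single libraries. It does not reach the 5 FPKM filter. The other endothelial genes lower were 28, with 17 under no filter, 15 at 5 FPKM, 15 with the block, and 16 to 27 without single libraries. The sinusoidal minus capillary difference of 0.49 was 0.78 and 0.85 at pseudocounts of 0.1 and 0.01, which weigh the low Cd34 more, and 0.35 to 0.58 without single libraries. Signs turned only in uncalled genes. Clec4g was 0.0587 with median-ratio scaling, 0.0554 under quantile normalization, 0.0793 at equal summed FPKM, 0.0220 with the block, 0.0125 without limonin 5 and 6 and 0.12 without MCD 4 and 5, with -0.21 to 0.0364 without single libraries. Pecam1 was 0.00074 after quantile normalization, and Oit3 ran from -0.10 to 0.14 without single libraries. Over settings of the 10 genes, 208 kept direction and call, 29 lost a call, 0 gained one and 12 changed sign. Other causes were not tested. Same-numbered livers correlated at 0.08, -0.24, -0.17, 0.20 and -0.17 in their deviations from group means. MCD livers correlated best with their own number in 1 of 5 cases. These 5 values show no pairing by number, but are too few to settle whether the numbers pair the livers. Depth limits Cd34 and Lyve1 most.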

Other observations

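MCD 1 was low in many genes of sinusoidal cells. It held the lowest MCD value in 13 of 14 tested further sinusoidal genes and in 13 of 18 pan-endothelial genes, and in 6 of 10 Kupffer cell markers. Fcna, a lectin of sinusoidal and Kupffer cells, was 12.1 FPKM there, against 23.2 to 29.1 FPKM in the other MCD livers, and Wnt2, an angiocrine ligand, was 0.631 FPKM against 1.74 to 2.60 FPKM. The Kupffer cell lectin gene Clec4f was 5.26 FPKM, against 18.2 to 30.4 FPKM. In the same liver the bile duct markers were high, with the highest MCD value in 4 of 5. These counts were made after the values were seen, and the share over all tested genes is not given beside them.

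Genes of hyaluronan handling, whose product is cleared by Stab2 and Lyve1, were listed as well. Of 6 tested, 1 fell (16.7%, against 18.7% of all tested genes lower). This was Cd44, a hyaluronan receptor of leukocytes and activated cells, at 1.15 ± 0.384 FPKM with limonin, against 3.14 ± 1.20 FPKM in MCD (-0.91 ± 0.19, adjusted p = 0.00516). The lysosomal hyaluronidase gene Hyal1 stood at 0.37 (adjusted p = 0.0955) and was not called. The synthase genes Has1, Has2 and Has3 were below the filter.

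By deviation from group means over the 11 libraries, the genes most like Plvap were Alox5ap (r = 0.95, rho = 0.95), Irf5 (r = 0.93, rho = 0.90) and Fxyd5 (r = 0.91, rho = 0.88), and those most like Stab2 were Tmem198b (r = 0.93, rho = 0.93), Gm29427 (r = 0.92, rho = 0.85) and Mlxipl (r = 0.91, rho = 0.84). These are the highest of 10489 correlations and are given as a description with no test.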
